A study of Mus musculus with 4 samples.

Results

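The endoplasmic reticulum (ER) stress set comprised 8 genes taken by name, Hspa5, Hsp90b1, Calr, Pdia3, Pdia4, Xbp1, Atf4 and Ddit3, and every probe set annotated to one of them was examined. Each gene had 1 probe set, which gave 8 of the 12488 probe sets on the array, and 0 further probe sets were shared between one of them and another gene. Liver RNA of female mice killed at 8 months in the fed state was hybridised to 4 oligonucleotide arrays. The 4 groups were HSL-null on a high-fat diet (FD), HSL-null on a normal diet (ND), wild type (WT) on FD and WT on ND. HSL-null mice lack hormone-sensitive lipase, the product of Lipe, in the whole body. FD supplied 58% and ND 11% of energy from fat, and each was fed for 6 months. Each array carried 1 pool of livers, 4 livers for HSL-null on FD and 6 for each other group, with no replicate. Ratios are therefore given without a test, and the spread between animals is unknown. "Higher" and "lower" below describe these pools only. In a pool, less RNA per cell and fewer cells that carry the RNA cannot be told apart.

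The ER folds secreted and membrane proteins, and hepatocytes, which secrete most plasma proteins, have much of it. Unfolded protein in its lumen activates the sensors IRE1, PERK and ATF6. IRE1 splices the Xbp1 transcript, PERK raises translation of Atf4 and through it transcription of Ddit3, which encodes CHOP, and cleaved ATF6 and spliced XBP1 raise chaperone genes through ER stress response elements in their promoters.

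The ER stress response element, CCAAT and CCACG with 9 bases between them, was searched on both strands of RefSeq promoter windows (250 bases before to 50 after the start, GRCm38.p6). All 8 genes had a window. The element was found in 3 of them, Hspa5, Hsp90b1 and Calr, the 3 lumenal chaperone genes of the set, and in 39 of 32851 windows of all genes, or 0.119%. Hspa5 held 1 copy 65 to 47 bases before the start, Calr 1 copy 162 to 144 bases before it on the opposite strand, and Hsp90b1 2 copies, one at 212 to 194 bases and one, on the opposite strand, at 107 to 89 bases. The stretches are shown because this is the element through which these chaperone genes are known to respond. They run 5′ to 3′ on the strand of the gene. Capitals mark the element, which reads CGTGG first and ATTGG last where it lies on the opposite strand. They lie at chr2:34772013-34772055 (plus strand) for Hspa5, chr10:86705521-86705668 (minus strand) for Hsp90b1 and chr8:84847063-84847105 (minus strand) for Calr.
Hspa5: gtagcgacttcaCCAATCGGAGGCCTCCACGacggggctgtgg
Hsp90b1: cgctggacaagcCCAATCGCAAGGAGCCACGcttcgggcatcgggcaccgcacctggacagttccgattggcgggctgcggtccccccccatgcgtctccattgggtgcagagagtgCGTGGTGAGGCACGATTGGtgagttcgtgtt
Calr: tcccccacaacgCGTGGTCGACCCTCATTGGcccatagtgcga

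Of 3 other elements searched, the second ER stress response element (ATTGG and CCACG with 1 base between) was in 0 of the 8 windows and 0.0365% of all windows, the unfolded protein response element TGACGTGG in 0 and 0.676%, and the amino acid response element TGATGCAAT in 0 and 0.192%. These counts cover only these letters in these windows.

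The genotype labels were checked through Lipe. Its signals of 15.9 in HSL-null on FD and 11.9 in HSL-null on ND lay under both WT signals. These were 34.0 in WT on FD and 28.0 in WT on ND. The mean signal of Lipe was under the filter, so the check rests on a dim probe set. Lipe cannot check the diet labels. The array medians lay between 25.2 and 28.3, and the SD between 2 probe sets of a gene was 0.30 for a log2 ratio over 687 genes, or 0.21 over the 229 genes whose probe sets both had a mean signal of at least 100. This SD leaves out error that an array's probe sets share, and with 1 probe set each, the 8 genes have no second reading of their own. The run settings give each genotype its own solution lot, and the effects of lot and genotype cannot be told apart. Kupffer cell markers, 12 of 15 above the filter, summed to 3793 in HSL-null on FD, 4044 in HSL-null on ND, 2984 in WT on FD and 4258 in WT on ND. Hepatocyte markers were bright on all arrays, with 14 of 16 above the filter on low signals and summed signals of 40894 in HSL-null on FD, 46038 in HSL-null on ND, 40194 in WT on FD and 53587 in WT on ND. The summed signal of markers of the exocrine pancreas, a tissue rich in ER, stood high in 1 pool, though not every marker was highest there. The 8 of 22 above the filter summed to 480.7 in HSL-null on FD, to 420.0 in HSL-null on ND, to 475.1 in WT on FD and to 1077 in WT on ND. Prss2, a trypsinogen gene, had 1.9, 15.2, 4.6 and 135.9 in that order. Both FD values lay under the floor of 6.1, so they have no order between them. Its probe set has the _f_at suffix, given to probes that match several related sequences. Cela1 was highest in HSL-null on FD, at 184.1 against 158.5 in WT on ND. Ctrl was highest in WT on FD, at 134.1 against 109.6 in WT on ND. Prss2, Reg1 and Cela2a passed the filter on mean signal only through WT on ND, so the choice of markers favours that pool.

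Differences within the ER stress set were under 2-fold between genotypes and between diets. Of its 8 genes, 7 passed the filter (a mean signal of at least 26.9), and 0 of these 7 reached a 2-fold ratio in any of the 4 pairwise comparisons or in the difference between the genotype ratios. Among all 4829 genes above the filter, 1.57% reached 2-fold for HSL-null against WT on ND, 2.82% for HSL-null against WT on FD, 3.15% for FD against ND in WT, 1.45% for FD against ND in HSL-null and 6.32% for the difference. With shares this low, a count of 0 of 7 does not set the genes apart from the rest. At 1.5-fold, 2 of 7 genes differed for FD against ND in WT (14.0% of all genes), Pdia3 higher (4.56% of all genes) and Atf4 lower (9.48%), and 0 of 7 in each of the other pairwise comparisons, where 6.73% of all genes differed for genotype on ND, 12.9% for genotype on FD and 6.44% for diet in HSL-null.

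**Figure D1:**
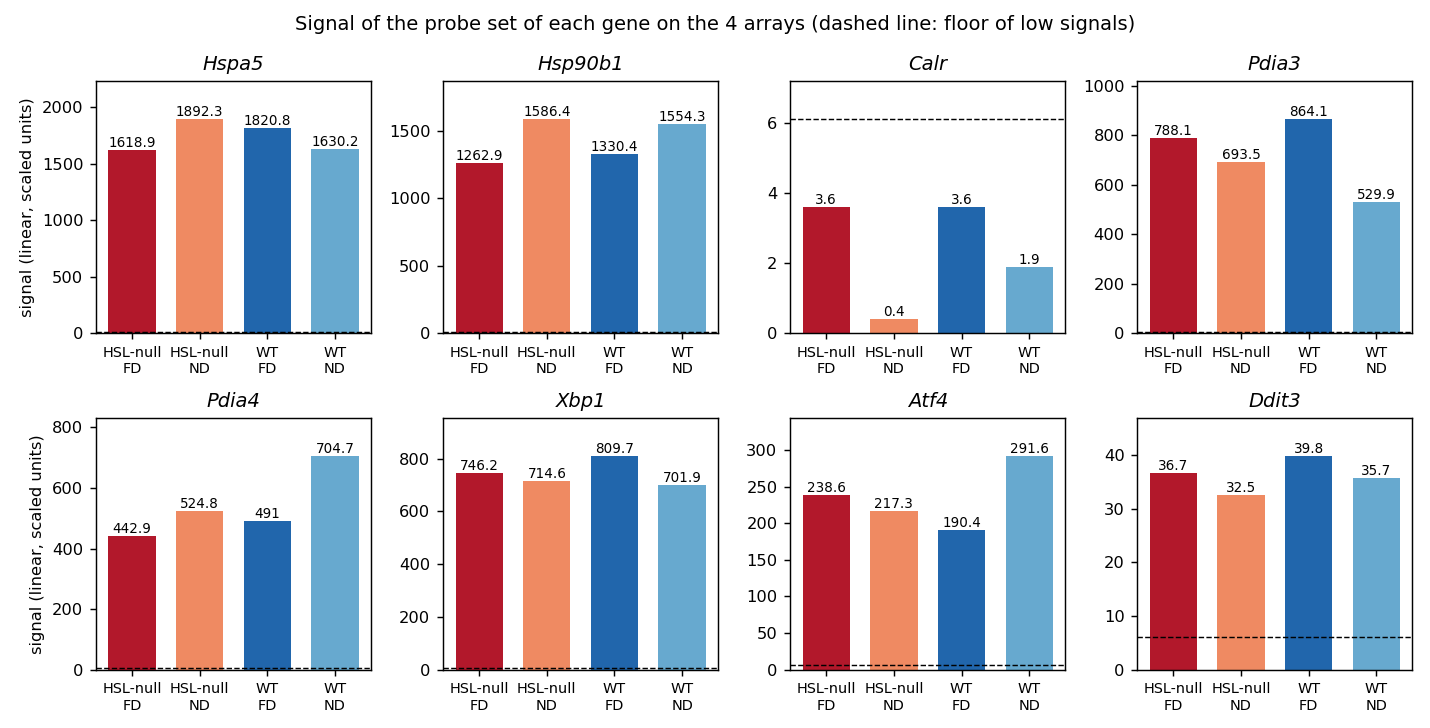
Signal on a linear scale of scaled units (y axis, from 0) of the 8 probe sets, 1 panel for each gene, in the 4 pools (x axis), with 1 array for each bar and no error bars because no array was repeated. The dashed line is the floor of 6.1; Calr lies under it on 4 arrays, and the other 7 genes lie above it on all of them.

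Hspa5, which encodes BiP, the Hsp70 of the ER lumen and the partner that holds the stress sensors inactive, was among the bright probe sets of the array. Its signal was 1618.9 in HSL-null on FD, 1892.3 in HSL-null on ND, 1820.8 in WT on FD and 1630.2 in WT on ND. The highest pool, HSL-null on ND, exceeded the lowest, HSL-null on FD, by 1.17-fold, where the median gene above the filter had a spread of 1.34-fold. The log2 ratio of HSL-null to WT was 0.22 on ND and -0.17 on FD, and that of FD to ND was -0.23 in HSL-null and 0.16 in WT. All 4 were under the SD of 0.30 over all pairs of probe sets, but 0.22 and -0.23 were past the SD of 0.21 among bright pairs. Of the 24 pairwise ratios of the 6 genes with a mean signal of at least 100, 12 were past that smaller SD. No share of all genes past it is given, and an SD is no bound on error, so this count cannot show if the 6 genes differ from the rest.

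Hsp90b1 encodes GRP94, the Hsp90 of the ER lumen, and its promoter holds the 2 elements shown above. Its signal was 1262.9 in HSL-null on FD, 1586.4 in HSL-null on ND, 1330.4 in WT on FD and 1554.3 in WT on ND. Both FD pools lay under both ND pools, while the genotypes lay close together on each diet. The log2 ratio of FD to ND was -0.33 in HSL-null and -0.22 in WT, against 0.029 on ND and -0.075 on FD for HSL-null over WT. Hepatocyte markers were lower on FD too, with 12 of 14 below 0 and a median of -0.18 in HSL-null, and 14 of 14 and -0.43 in WT. Among all 4829 genes, 2068 were below 0 in HSL-null and 2691 in WT. Under quantile normalization the hepatocyte median in WT was -0.078. Hsp90b1 stayed between -0.48 and -0.23 in HSL-null and between -0.22 and -0.083 in WT over all 9 alternative processings. Only quantile normalization, median scaling, cyclic loess and the pseudocount could change the ratios of Hsp90b1. The part of the hepatocyte shift in the Hsp90b1 difference was not tested.

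Calr encodes calreticulin, a lectin chaperone that binds calcium in the ER lumen. Its probe set gave 3.6 in HSL-null on FD, 0.4 in HSL-null on ND, 3.6 in WT on FD and 1.9 in WT on ND. All 4 values lay under the floor of 6.1, so they have no order and no ratio is given. The probe set was brighter on average than only 11.3% of the non-control probe sets. The level of Calr RNA was therefore not measured by this probe set, and Hyou1, which encodes another lumenal chaperone, was likewise under the floor, at 0.3 to 0.6.

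The 2 protein disulfide isomerase genes had opposite differences, each with the WT pool on ND at one end. Pdia3 encodes ERp57, which forms disulfide bonds in glycoproteins bound by calreticulin or calnexin. It had a signal of 788.1 in HSL-null on FD, 693.5 in HSL-null on ND, 864.1 in WT on FD and 529.9 in WT on ND. The WT pool on ND was the lowest, and the 3 others lay within 693.5 to 864.1. The log2 ratio of FD to ND was 0.18 in HSL-null and 0.71 in WT, a 1.63-fold difference in WT, and that of HSL-null to WT was 0.39 on ND and -0.13 on FD.

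Pdia4 encodes ERp72, an isomerase that associates with BiP and GRP94. Its signal was 442.9 in HSL-null on FD, 524.8 in HSL-null on ND, 491.0 in WT on FD and 704.7 in WT on ND. Here the WT pool on ND was the highest, and the 3 others lay within 442.9 to 524.8. The log2 ratio was -0.43 on ND and -0.15 on FD for HSL-null over WT, and -0.24 in HSL-null and -0.52 in WT for FD over ND. The same pool had the highest summed signal of exocrine pancreas markers. Their median log2 ratio was -1.56 for HSL-null over WT on ND and -1.39 for FD over ND in WT, with 8 of 8 and 7 of 8 below 0. Of all 4829 genes, 2539 and 2691 were below 0 in these comparisons. Some of these markers, Prss2, Reg1 and Cela2a, passed the filter only through WT on ND, which favours these directions. Over the processings the medians ran from -1.64 to -0.45 and from -1.41 to -0.67. The part of these markers in the Pdia4 difference was not tested. The 2 comparisons that use the WT array on ND share it and are not independent.

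**Figure D2:**
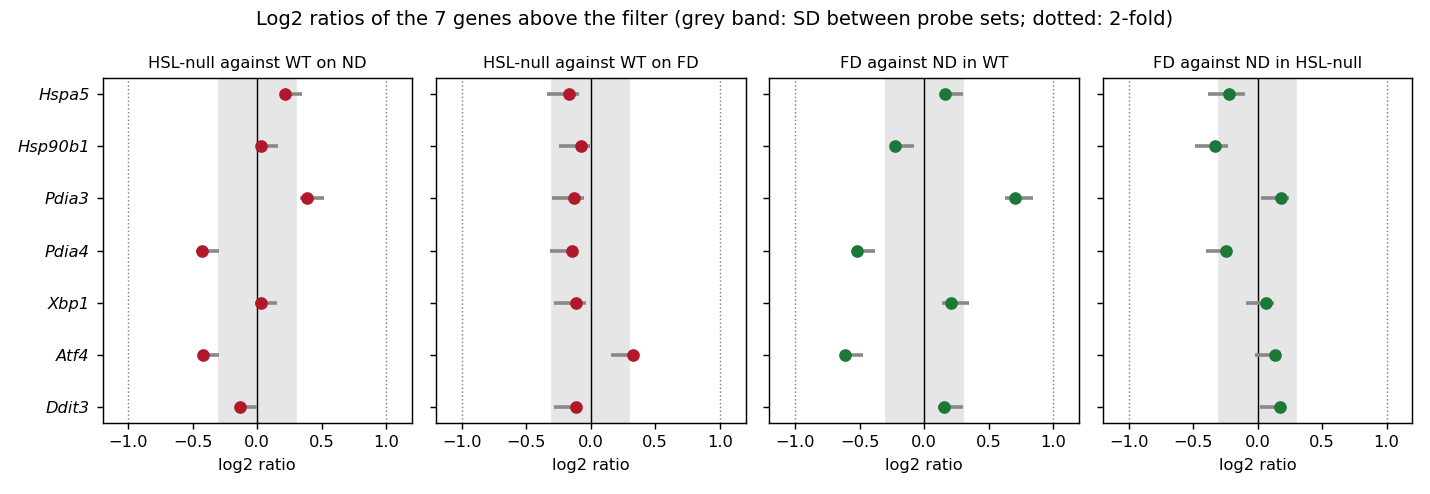
Log2 ratio (x axis) of each of the 7 genes above the filter (rows) in the 4 pairwise comparisons (panels). A point is the ratio as reported and a grey line its range over the 9 alternative processings. Only quantile normalization, median scaling, cyclic loess and the pseudocount can change these ratios. The grey band marks the SD of 0.30 between probe sets of a gene and the dotted lines 2-fold. Of the 28 points, 8 lie outside the band, 6 of them among the 14 points of the 2 comparisons that use the WT array on ND. No share of all genes outside the band is given, so this count cannot show if the 7 genes differ from the rest.

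Among the transcription factor genes, Xbp1 had a signal of 746.2 in HSL-null on FD, 714.6 in HSL-null on ND, 809.7 in WT on FD and 701.9 in WT on ND. XBP1 drives chaperone and degradation genes once its transcript is spliced, and no label says if these probes tell the spliced transcript from the unspliced one. The 4 pools lay within 1.15-fold of each other, and 13.2% of genes had a smaller spread. The log2 ratio of HSL-null to WT was 0.026 on ND and -0.12 on FD, and that of FD to ND was 0.062 in HSL-null and 0.21 in WT. Plasma cells use much XBP1. Of the 5 plasma and B cell markers above the filter, log2 ratios for HSL-null over WT on FD were 2.60 for Jchain, 1.41 for Ighm, 0.60 for Cd79b, 0.023 for Sdc1 and -0.50 for Ms4a1. Signals of Jchain were 93.4 in HSL-null on FD, 46.8 in HSL-null on ND, 15.4 in WT on FD and 48.4 in WT on ND. The 5 markers, of 12 listed, summed to 726.7, 485.6, 441.2 and 560.7 in the same order of pools, with none under the floor, and their part in the Xbp1 values was not tested.

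Atf4 encodes the factor translated under PERK and related kinases, which induces amino acid synthesis and transport. Its signal was 238.6 in HSL-null on FD, 217.3 in HSL-null on ND, 190.4 in WT on FD and 291.6 in WT on ND. The 2 WT pools were the extremes, and both HSL-null pools lay between them. The summed signals of Kupffer cell and hepatocyte markers were also highest in WT on ND and lowest in WT on FD. For FD over ND in WT, 11 of 12 Kupffer cell markers and 14 of 14 hepatocyte markers were below 0, with a median of -0.43 in each list. The difference between the genotype ratios was positive for 12 of 12 and 13 of 14. Among all 4829 genes, 2691 were below 0 for that diet ratio and 2813 had a positive difference. Over the processings the WT medians ran from -0.49 to -0.29 for Kupffer cell markers and from -0.43 to -0.078 for hepatocyte markers. The median differences ran from 0.049 to 0.40 and from -0.053 to 0.33. The part of these markers in the Atf4 values was not tested. HSL-null over WT had a log2 ratio of -0.42 on ND and 0.33 on FD, so the genotype ratios were opposite, with a difference of 0.75 between them, where the SD between probe sets was 0.43. FD over ND was 0.13 in HSL-null and -0.61 in WT, a 1.53-fold lower signal on FD. The difference between the genotype ratios was 1.5-fold or more in 1 of 7 genes, Atf4, where it was positive, and in 22.6% of all genes (positive in 16.1%). Under median scaling it was 0.45, and FD over ND in WT was -0.47, both short of 1.5-fold. With a pseudocount in place of the floor, FD over ND in WT was -0.58.

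Ddit3, which encodes the stress factor CHOP, was dim. It gave 36.7 in HSL-null on FD, 32.5 in HSL-null on ND, 39.8 in WT on FD and 35.7 in WT on ND. The pools lay within 1.22-fold of each other. The log2 ratio of HSL-null to WT was -0.14 on ND and -0.12 on FD, and that of FD to ND was 0.18 in HSL-null and 0.16 in WT. All 4 were smaller than the SD between probe sets.

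Genes that ATF4 or CHOP activates had medians near 0. Of 29 listed, 15 passed the filter, with a median log2 ratio of 0.051 for HSL-null over WT on ND and -0.0021 on FD, and of -0.036 in HSL-null and -0.070 in WT for FD over ND. The medians of all genes were -0.018, 0.067, 0.041 and -0.047. Asns, which encodes asparagine synthetase, a classical ATF4 target, was the member of the list with the largest ratio and ordered the 4 pools as Atf4 did, the only one of the 15 to do so. This order held for 9.17% of all genes, so 1 of 15 does not set the list apart. Its signal was 137.2 in HSL-null on FD, 95.6 in HSL-null on ND, 69.6 in WT on FD and 145.8 in WT on ND. The log2 ratio was -0.61 on ND and 0.98 on FD for HSL-null over WT, and 0.52 in HSL-null and -1.07 in WT for FD over ND, so that FD was 2-fold or more lower in WT for 1 of 15 genes (2.36% of all genes). That ratio was short of 2-fold at -0.996 with quantile normalization, -0.93 with median scaling and -0.92 with the pseudocount. Another probe set of Asns lay under the floor on all 4 arrays.

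The other genes with large ratios in this list differed in pattern. Atf3, a stress-induced factor, had 54.9 in HSL-null on FD, 32.9 in HSL-null on ND, 40.6 in WT on FD and 41.0 in WT on ND. Its probe set has the _f_at suffix, given to probes that match several related sequences, and its other 2 probe sets did not pass the filter. Cebpb, a liver factor of the acute phase and fasting, had 487.7, 430.5, 321.1 and 404.3 in that order of pools. Gars, a glycyl-tRNA synthetase gene, had 149.0, 147.3, 165.4 and 105.4. Asns and Cebpb were lowest in WT on FD, while Gars was highest there and lowest in WT on ND, as Pdia3 was.

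**Figure D3:**
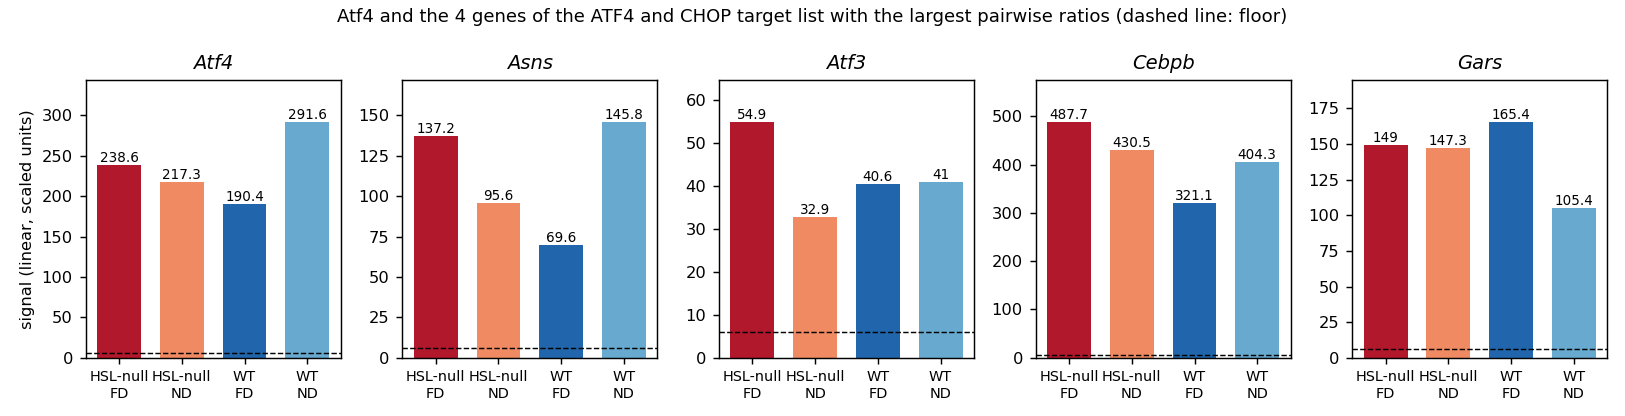
Signal on a linear scale of scaled units (y axis, from 0) of Atf4 and the 4 genes of its target list with the largest pairwise ratios in the 4 pools (x axis), 1 array for each bar, with the floor of 6.1 dashed. Asns shares the order of pools seen in Atf4, highest in WT on ND at 145.8 and lowest in WT on FD at 69.6, and the 3 other genes do not.

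The wider ER machinery stayed under 2-fold in the 4 pairwise comparisons. Lists of lumenal chaperones and oxidoreductases, stress sensors, ER-associated degradation (ERAD) and the translocon with signal peptidase and oligosaccharyltransferase together held 78 genes, of which 59 passed the filter. Of these 59, 0 reached 2-fold in any pairwise comparison. At 1.5-fold, 0 were higher and 2 lower for HSL-null over WT on ND (2.36% and 4.37% of all genes), 2 and 1 on FD (9.17% and 3.77%), 2 and 0 for FD over ND in HSL-null (4.14% and 2.3%), and 3 and 4 in WT (4.56% and 9.48%). With median scaling these splits were 2 and 1, 1 and 6, 0 and 1, and 9 and 2, so the balance of directions depends on the scaling. The difference between the genotype ratios was 2-fold or more in 2 of the 59, Stt3a (1.47) and Dnajb9 (1.06), and in 6.32% of all genes. The other probe set of Dnajb9 gave -0.32. At 1.5-fold the difference was positive in 4 and negative in 5, where 22.6% of all genes passed (positive in 16.1%). With median scaling it was positive in 3 and negative in 18. These counts do not set the lists apart from all genes. The medians of the log2 ratio were 0.0027 on ND and -0.029 on FD for genotype, and -0.045 in HSL-null and -0.0043 in WT for diet.

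Among the lumenal proteins, 23 of 28 genes passed the filter, with a median of 0.087 on ND and -0.046 on FD for HSL-null over WT. Serpinh1, which encodes the collagen chaperone HSP47, had 37.6 in HSL-null on FD, 43.5 in HSL-null on ND, 37.0 in WT on FD and 68.0 in WT on ND, with a log2 ratio of -0.64 for genotype on ND and -0.88 for diet in WT. Creld2, a stress-induced isomerase-like gene, was lower in HSL-null on both diets, with 122.2 against 191.4 in WT on FD and 139.4 against 195.5 in WT on ND, or log2 ratios of -0.65 and -0.49. Dnajb9, a BiP co-chaperone gene induced by XBP1, gave a log2 ratio of 0.84 for HSL-null over WT on FD at its brighter probe set (442.9 and 247.7) and -0.20 at its other one (159.2 and 183.2). P4hb, the gene of protein disulfide isomerase itself, gave 0.54 at its brighter probe set (379.6 and 260.8) and -0.13 at the other (25.9 and 28.3). The probe sets of both genes thus disagreed in direction. The brighter one of P4hb has the _r_at suffix and is left out by the alternative limited to probe sets without a suffix.

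Among the sensors, 3 of 6 genes passed the filter. Atf6 had 57.0 in HSL-null on FD, 67.9 in HSL-null on ND, 50.9 in WT on FD and 76.6 in WT on ND, with a log2 ratio of -0.25 in HSL-null and -0.59 in WT for FD over ND. Its relative Atf6b had 0.58 for genotype on ND at a dim probe set and 0.43 at another. The medians of the 3 were -0.16 on ND and 0.021 on FD for HSL-null over WT, and -0.22 in HSL-null and -0.23 in WT for FD over ND. Mbtps1, whose protease cleaves ATF6, stayed within 122.2 to 143.2. Eif2ak3, the PERK gene, had a mean under the filter, with 27.2 in HSL-null on FD, 24.8 in HSL-null on ND, 16.8 in WT on FD and 14.9 in WT on ND.

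In ERAD, Herpud1, a stress-induced membrane component, had 1020.2 in HSL-null on FD, 880.5 in HSL-null on ND, 1378.2 in WT on FD and 912.9 in WT on ND. Its log2 ratio for FD over ND was 0.21 in HSL-null and 0.59 in WT, and for genotype -0.052 on ND and -0.43 on FD. Edem1, a mannosidase-like factor induced by XBP1, was lowest in WT on ND, at 66.6 against 87.9 to 95.5 elsewhere. Derl1, a channel component, had a log2 ratio of -0.22 in HSL-null and -0.51 in WT for FD over ND at its brighter probe set, but 0.089 in WT at the other. Ufd1, which extracts proteins with VCP, had 0.52 for genotype on FD.

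At the translocon, Sec11a, a signal peptidase subunit gene, had 368.2 in HSL-null on FD, 305.3 in HSL-null on ND, 424.2 in WT on FD and 237.2 in WT on ND, a log2 ratio of 0.27 in HSL-null and 0.84 in WT for FD over ND. Rpn1, of the oligosaccharyltransferase, had 0.018 and 0.59 for the same ratios, and 0.18 in WT at another probe set. Stt3a, a catalytic subunit of that enzyme, had signals of only 46.0, 28.2, 29.0 and 49.2 in the same order of pools, with a log2 ratio of -0.80 on ND and 0.67 on FD for genotype. Sec62, a translocon partner, had 0.55 for genotype on FD at its brightest probe set, with 0.48 and 0.014 at its others. The lowest pool for Sec11a and Rpn1 was WT on ND, as for Pdia3, and such an order was about as frequent in these lists as elsewhere. WT on FD was the highest and WT on ND the lowest pool for 7 of 59 ER genes, or 11.9%, and for 10.7% of all genes.

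**Figure D4:**
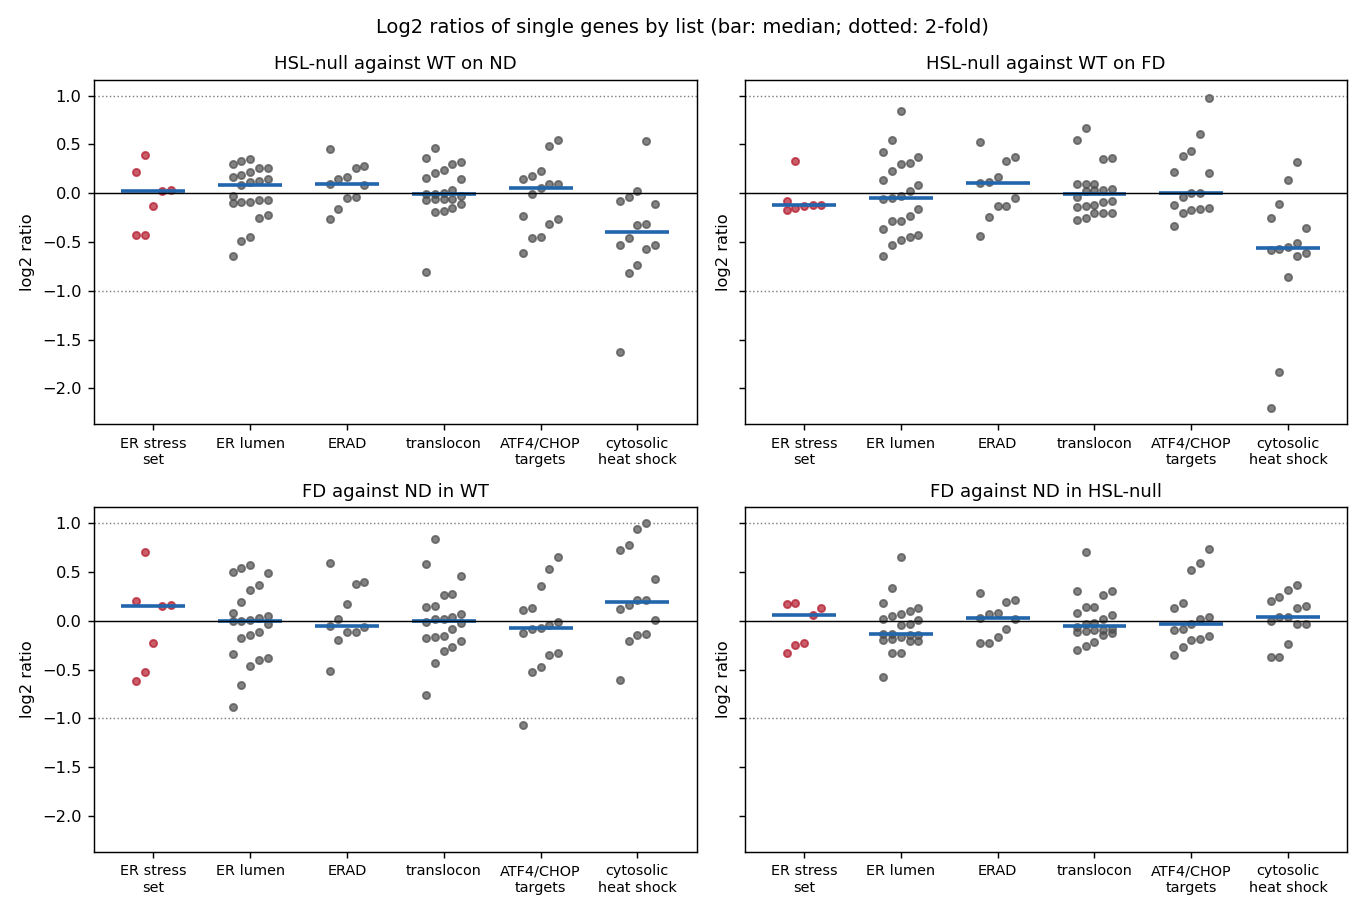
Log2 ratio (y axis) of single genes, 1 point each, in the ER stress set and 5 related lists (x axis) for the 4 pairwise comparisons (panels), with the list median as a bar and 2-fold dotted. The set and the ER and ATF4 lists plotted have medians from -0.13 to 0.16 (the 3 sensor genes are not plotted), while the cytosolic heat shock list has medians of -0.39 on ND and -0.56 on FD for HSL-null over WT.

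Chaperones of the cytosol had lower medians than those of the ER in the genotype comparisons. Of 18 cytosolic heat shock genes, 14 passed the filter, and 12 of the 14 were below 0 on each diet, with medians of -0.39 on ND and -0.56 on FD. Among all 4829 genes, 2539 were below 0 on ND and 2003 on FD. The ER stress set had medians of 0.026 and -0.12, and no test of the difference between the lists was made. Hspa1b, an inducible cytosolic Hsp70 gene and relative of Hspa5, had 61.9 in HSL-null on FD against 285.5 in WT on FD, and 55.8 in HSL-null on ND against 173.0 in WT on ND. Hspa5 differed by at most 1.17-fold among the same pools.

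The genes above the filter whose centred log2 profile over the 4 arrays lay nearest to the mean profile of Hspa5, Hsp90b1, Calr, Pdia3 and Pdia4 were Eif1ax, Psmb7, Atp5g2, Mlycd and Isg15, at Euclidean distances of 0.021, 0.026, 0.027, 0.028 and 0.029. That mean profile was itself nearly flat, from -0.077 in HSL-null on FD to 0.046 in HSL-null on ND, because Pdia3 and Pdia4 cancelled in it and Calr lay at the floor, so it describes none of the 5 genes closely.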

How the data were processed

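RNA of 4 liver pools, 1 for each group, was measured on Affymetrix MG_U74Av2 arrays. The deposited intensity of each probe set is linear. MAS5 is the tool that the submitters' processing notes name, without a version. The trimmed mean (2% off each end) was 100.085 to 100.094 on the 4 arrays. Other deposited files hold run settings and no expression score. Probe sets were named through the platform annotation and a RefSeq gene table (GRCm38.p6), and only those with 1 gene were used (10833).

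Values under 6.1, the 25th percentile of the 12422 non-control probe sets, were set to 6.1 before log2. Probe sets with a mean of at least 26.9, the median, were kept, and each of 4829 genes was represented by its brightest one. 1 array a group allows no test, and precision is limited by how few arrays there are. The steps were tested on simulated data with changes in bright genes larger than any seen in the ER stress set. That test does not cover differences of the size reported for the set. Python 3.11.15, pandas 2.3.3 and limma 3.58.1 were used. Alternatives were quantile normalization, median scaling, cyclic loess, the floor at the median (26.7), a pseudocount of 16 with no floor, no filter, a filter at 97.1, averaging the probe sets of a gene, and probe sets without a suffix. The genes and lists were chosen with earlier results of these data known. Genes named are the 8 of the set, Lipe, up to 4 of each list with the largest pairwise ratios, and the 5 nearest in profile. Hyou1, Eif2ak3, Sdc1, Cela1, Cela2a and Ctrl were added after their values were seen. Protein sequences were not used here.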

Additional observations from a re-analysis of the deposited data

Results flagged for a closer look

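In 5 genes of the ER stress set the ratio of HSL-null to WT had opposite signs on the 2 diets, with 1 array in each group, and none of these differences was tested. Among all 4829 genes, 53.3% had opposite signs too, so 5 of 7 is not set apart from the rest by this count. The log2 ratio on FD minus that on ND was 0.75 for Atf4, -0.52 for Pdia3, -0.38 for Hspa5, -0.14 for Xbp1 and -0.10 for Hsp90b1, where the SD from disagreement between probe sets was 0.43 over all pairs and 0.30 over those with a mean signal of at least 100. Hspa5 lies past the second and not the first. With quantile normalization the ratio of Xbp1 on ND was -0.020, which leaves 4 genes with opposite signs. For Atf4 and Hspa5, 2 of 7 genes, the ratio of FD to ND also had opposite signs in HSL-null and WT. It did so in 53.5% of all genes, so this count does not set the 7 genes apart either. The difference between those ratios, HSL-null minus WT, is by its arithmetic the same value, 0.75 for Atf4 and -0.38 for Hspa5. With median scaling Atf4 was at -0.021 for FD over ND in HSL-null, the same sign as in WT. Among all 4829 genes the median difference was 0.092. No group had the 4 arrays that a search for outlying samples needs.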

How the results depend on the processing

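No paired analysis was possible because each group had 1 array and the labels number no replicates; for the same reason no array could be left out. Under the 9 alternatives, 0 genes of the ER stress set reached 2-fold in any comparison. The 310 recomputed ratios of single genes all moved by less than the SD between probe sets. Only quantile normalization, median scaling, cyclic loess and the pseudocount could move them. The other alternatives could not, because each gene had 1 probe set, without a suffix, and the 7 kept genes lay above 26.7 on every array. Those others therefore add nothing to the counts of ratios that stayed. Of the 28 pairwise ratios, 25 kept 1 direction in all settings, the exceptions being Xbp1 for genotype on ND (-0.020 to 0.16) and for diet in HSL-null (-0.094 to 0.12), and Atf4 for diet in HSL-null (-0.021 to 0.13). The difference between the genotype ratios turned for Pdia4 with median scaling (-0.021) and for Ddit3 with median scaling (-0.28), quantile normalization (-0.25) and cyclic loess (-0.25). The count of genes 1.5-fold different for FD against ND in WT was 2 as reported, and 1 with median scaling or with the pseudocount. For the difference between the genotype ratios it was 1 as reported and 2 with median scaling, when Pdia3 (-0.82) and Hspa5 (-0.68) passed and Atf4 (0.45) did not. With median scaling the all-gene median moved by 0.13 for genotype on ND, -0.17 for genotype on FD, 0.14 for diet in WT and -0.16 for diet in HSL-null, and by -0.30 for the difference. Relative to these shifts, ratios above the floor are as reported, since 1 factor was applied to each array. The all-gene counts of 2-fold differences depended on dim probe sets: for genotype on FD there were 136, with 419 without the filter, 44 with the stricter one and 63 with the pseudocount. Across the 4 pairwise comparisons the other all-gene counts at 2-fold were 76, 152 and 70, with 313, 480 and 290 without the filter and 14, 47 and 30 with the stricter one, for genotype on ND, diet in WT and diet in HSL-null. The profile without Calr, chosen after seeing the data, had Psmb7 nearest, at 0.014. Ddit3 was not above the stricter filter.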

Other observations

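Nupr1, a stress factor gene that CHOP and ATF4 are known to induce, had a mean under the filter and was singled out after its values were seen. Its signals were 2.6 in HSL-null on FD, 22.2 in HSL-null on ND, 14.8 in WT on FD and 37.5 in WT on ND, so both FD pools lay under their ND pools, and the HSL-null pool on FD lay under the floor. Ppp1r15a, which encodes GADD34, the phosphatase subunit that ends the PERK response, was highest in the WT pool on ND, with 34.2 in HSL-null on FD, 39.1 in HSL-null on ND, 37.1 in WT on FD and 53.4 in WT on ND. Trib3, a CHOP target, had 28.3, 30.1, 21.8 and 30.3 in that order. Both were picked with their values in view.

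Of 59 genes in the ER lists above the filter, WT on ND was the highest and WT on FD the lowest pool, as for Atf4, in 10, or 16.9%, beside 15.4% of all genes above the filter. The 10 were Atf6, Erp29, Mbtps1, P4hb, Pdia6, Sec61b, Serpinh1, Ssr3, Tmx1 and Tram1. The reverse, as for Pdia3 and Xbp1, held for Canx, Fkbp2, Manf, Prdx4, Rpn1, Sec11a and Srpr. The 2 groups of genes were sorted by these values, and no test was made of them. The order is that of each gene's brightest probe set. For P4hb, Pdia6, Ssr3, Canx and Srpr, another probe set above the filter gave other extremes.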
